A study of Mus musculus with 10 samples.

Results

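The 9 genes described here encode steroid-metabolizing enzymes of mouse liver, namely the hydroxysteroid dehydrogenases Hsd3b2, Hsd3b3, Hsd3b5, Hsd11b1, Hsd17b2, Hsd17b6, Hsd17b11 and Hsd17b13 and the steroid reductase Srd5a1. They were chosen by name from 16647 listed genes, and all 9 were among the 13219 genes with enough counts to be tested. Liver RNA came from 5 control and 5 MI-883-treated male mice, each library from another animal. All mice carried the humanized PXR-CAR-CYP3A4/3A7 alleles (model of Taconic), in which human PXR, CAR, CYP3A4 and CYP3A7 stand in for mouse genes, and none of the comparisons includes mice with the mouse receptors. At 10 to 15 weeks of age they were put on a high-fat diet, which they received for 8 weeks before treatment began and throughout treatment. MI-883 is a synthetic ligand of the xenobiotic receptors CAR and PXR. The paper describes this compound as an agonist of CAR and an antagonist of PXR. It was given by gavage at 5 mg/kg, 3 times per week for 4 weeks, in a vehicle of DMSO, PEG300 and corn oil, and the control mice received this vehicle alone.

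Hydroxysteroid dehydrogenases exchange a hydroxyl group of a steroid for a keto group, or the reverse, with NAD(H) or NADP(H) as cofactor, and thereby switch hormones between active and inactive forms. In liver they reactivate glucocorticoid, inactivate estrogen and androgen, and prepare steroids for excretion. Several members of the family act on retinoids or sit on lipid droplets. CAR and PXR are nuclear receptors that raise the transcription of enzymes that hydroxylate and conjugate drugs and steroids.

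None of the 9 genes passed the test between MI-883-treated and control livers. The gene nearest to the threshold was Hsd17b2, which inactivates estradiol and testosterone, with a mean of 107 ± 10.7 CPM in controls and 136 ± 14.7 CPM after MI-883 (SD, n = 5 per group, edgeR adjusted P = 0.0948). The estimates of Hsd3b3, Hsd11b1 and Hsd3b2 lay below 0 with 95% intervals that did not include 0, but their adjusted P values were 0.169 or higher in edgeR. The most variable members were Hsd3b5, with a highest liver 7.92-fold above the lowest among controls and 4.05-fold among treated mice, and Hsd17b6, at 1.72-fold and 3.46-fold. CPM are library-size-scaled counts after TMM normalization, and fold changes are log2 values of MI-883 over control by edgeR, with P values adjusted over all tested genes (Benjamini-Hochberg) and a threshold of 0.05.

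Of all tested genes, 136 were called, or 1.03%, with 101 higher in MI-883-treated livers (0.764%) and 35 lower (0.265%). The count of 0 among 9 members lies close to this background and says nothing particular about them. By unadjusted P under 0.05, 4 of the 9 members and 2059 of the 13219 tested genes passed. The estimate was below 0 for 7 members and above 0 for 2, with a median of -0.27, where 6475 tested genes were below 0 and the median over all tested genes was 0.0045. No member had groups of livers that did not overlap, whereas all 5 MI-883-treated livers lay above all controls for 2.05% of tested genes and below them for 1.93%. The Wald test of DESeq2, used as an alternative, called 1 of the 9 members, Hsd17b2, against 2.2% of genes called higher and 1.3% called lower.

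**Figure D1:**
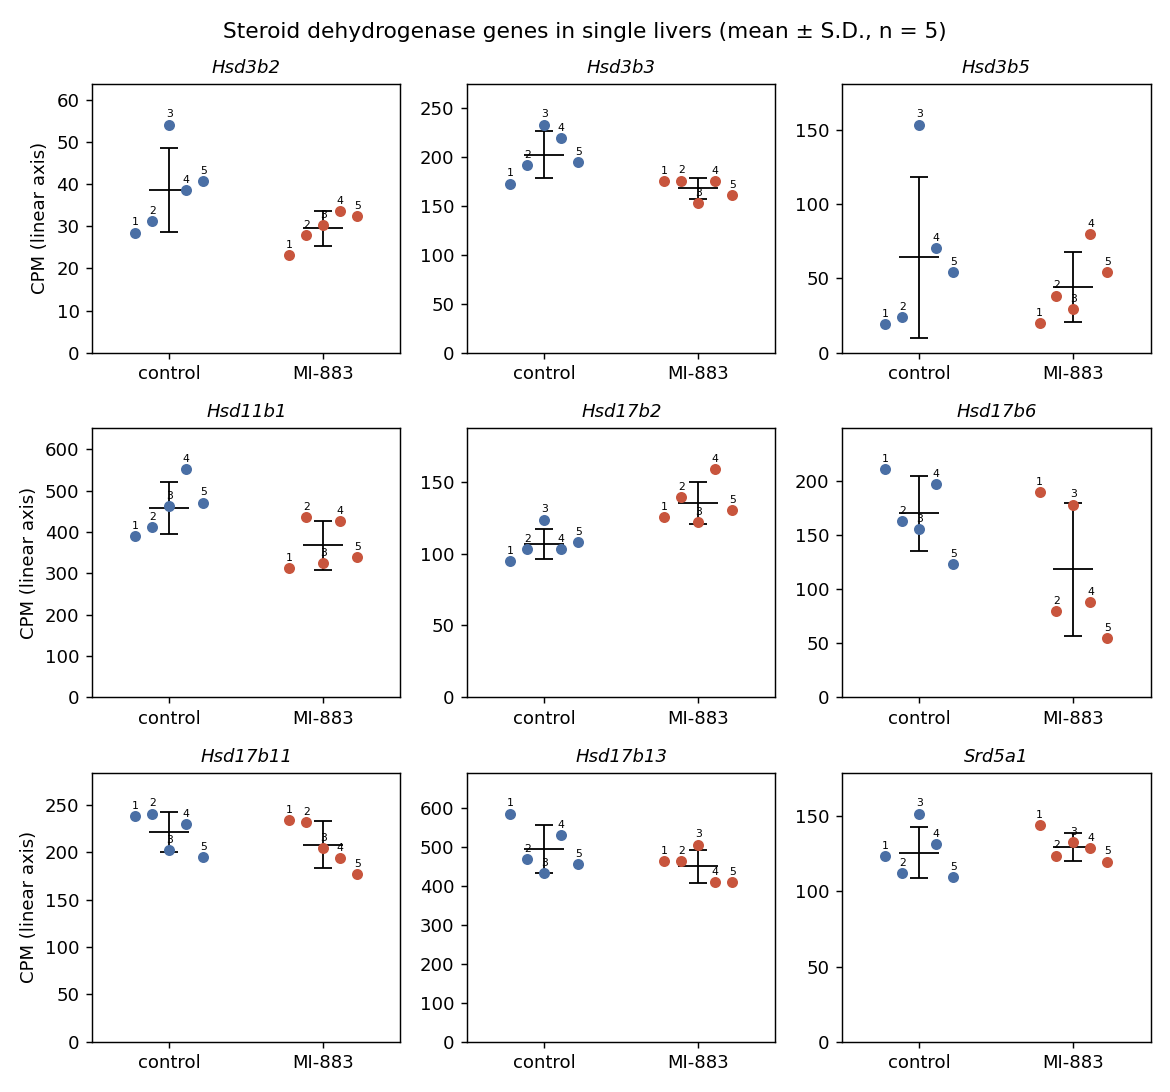
Level of each of the 9 genes in CPM (vertical axes, linear, from 0) in the 5 control livers (blue) and the 5 MI-883-treated livers (red), with numbers giving the replicate, horizontal bars the mean and whiskers the SD. The groups overlap for every gene, Hsd17b2 has its 4 highest values among the treated livers, and Hsd3b5 ranges from 19.4 to 153 CPM among the controls.

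The library totals lay between 23513665 and 36221514 counts, and the lowest count of a member in any liver was 575, for Hsd3b5, so that counting error was small beside the differences between animals. Cyp2b10, a target gene of CAR, had 36.5 ± 9.10 CPM in controls and 1019 ± 299 CPM after MI-883 (log2 fold change 4.80, edgeR adjusted P = 3.63e-07, n = 5 per group). EdgeR called 13 of 18 genes known to respond to CAR and PXR, all higher, with a list median of 1.05. Over all tested genes it called 0.764% higher. This list was chosen with earlier results of these data known. Reads on mouse Nr1i2 and Nr1i3, which encode PXR and CAR, stood between 9.82 and 15.5 CPM and between 4.41 and 8.91 CPM over the 10 livers. The hepatocyte markers Alb, Ttr, Apoa1, Tat and Hnf4a summed to between 71549 and 82679 CPM in controls and between 60222 and 72379 CPM after MI-883, and edgeR called 0 of these 5 markers (2 at an unadjusted P under 0.05, and 1 lower in DESeq2). All 5 estimates were below 0. Alb, which made up most of the sum, was at 56582 ± 4446 CPM in controls and 50515 ± 3589 CPM after MI-883. Hnf4a was at 430 ± 60.1 and 429 ± 69.4 CPM. The part of these markers in the lower estimates of the members was not tested. In these bulk samples, fewer hepatocytes, less RNA per hepatocyte and lower expression of single marker genes cannot be told apart.

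The members compare with each other only per length, for which CPM were divided by the kilobases of annotated exon. These lengths join the exons of all GENCODE transcripts of a gene, such as 6396 bases for Hsd3b3 and 1549 for Hsd3b5. The annotation used in the counting is not given, so the order below rests on this choice of length. In CPM without length, Hsd3b3 was at 203 and Hsd3b5 at 64.2 in control livers. On this scale the highest level in control livers was that of Hsd17b13, a lipid droplet enzyme of hepatocytes, with 229 ± 28.9 CPM per kb (n = 5). Hsd17b6 followed at 108 ± 22.3 and Hsd11b1 at 108 ± 14.8 CPM per kb, then Hsd17b11 at 67.8 ± 6.49, Hsd17b2 at 55.5 ± 5.57, Srd5a1 at 43.2 ± 5.87, Hsd3b5 at 41.4 ± 34.9, Hsd3b3 at 31.7 ± 3.74 and Hsd3b2 at 10.5 ± 2.72. The ranges over control livers parted Hsd17b13 from Hsd17b6, Hsd11b1 from Hsd17b11 and Hsd3b3 from Hsd3b2, and all other neighbours in this order overlapped. In MI-883-treated livers Hsd17b13 remained the highest at 208 ± 19.1 and Hsd3b2 the lowest at 7.98 ± 1.12 CPM per kb.

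The 3β-hydroxysteroid dehydrogenases form a cluster of 6 listed genes within 361 kb of chromosome 3. Hsd3b2 (Entrez gene 15493, GRCm38 chr3:98711107-98724543) and Hsd3b3 (15494, chr3:98741476-98764540) belong to the type of enzyme that oxidizes the 3-hydroxyl group of steroid precursors and shifts the double bond, while Hsd3b5 (15496, chr3:98618636-98645534) is a reductase of 3-ketosteroids known from male mouse liver. Hsd3b1, the enzyme of adrenal and gonad, had 0 to 1 counts per liver, Hsd3b4 had 0 to 2 and Hsd3b6 had 0 to 4, so that 3 of the 6 genes carried nearly all reads. Hsd3b3 took 68.6 ± 10.3% of the Hsd3b counts in control and 70.2 ± 7.55% in MI-883-treated livers, Hsd3b5 took 18.7 ± 10.5% and 17.6 ± 7.25%, and Hsd3b2 took 12.7 ± 0.854% and 12.2 ± 1.45% (n = 5 per group). The genes are close copies. Of all 100-base stretches of annotated transcripts, 8.28% in Hsd3b2, 4.67% in Hsd3b3 and 7.79% in Hsd3b5 also occur in transcripts of another gene, and how the counting treated reads from such stretches is not given in the sources used here. All 3 overlap Zfp697 on the opposite strand.

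The upstream sequences of these 3 genes are shown because the genes neighbour each other and yet differ in how much they vary between livers. They are the 250 bases before the annotated start (RefSeq, GRCm38.p6, minus strand, 5′ to 3′), with capitals for a match to CAAAGTTCA on the other strand.
Hsd3b5, chr3:98645535-98645784: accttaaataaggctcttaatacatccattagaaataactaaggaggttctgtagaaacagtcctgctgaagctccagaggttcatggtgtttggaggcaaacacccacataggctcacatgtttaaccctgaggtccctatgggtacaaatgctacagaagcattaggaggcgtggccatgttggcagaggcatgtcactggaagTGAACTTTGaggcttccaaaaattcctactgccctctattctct
Hsd3b3, chr3:98763129-98763378: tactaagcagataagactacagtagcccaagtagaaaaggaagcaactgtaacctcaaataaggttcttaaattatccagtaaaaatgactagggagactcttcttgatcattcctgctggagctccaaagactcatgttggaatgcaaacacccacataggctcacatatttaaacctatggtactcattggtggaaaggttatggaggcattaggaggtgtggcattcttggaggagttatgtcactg
Hsd3b2, chr3:98724544-98724793: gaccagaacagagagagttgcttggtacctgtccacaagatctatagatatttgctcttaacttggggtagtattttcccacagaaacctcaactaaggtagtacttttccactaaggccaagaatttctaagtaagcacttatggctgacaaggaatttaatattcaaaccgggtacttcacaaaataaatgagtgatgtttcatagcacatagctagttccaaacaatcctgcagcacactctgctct
In a local alignment, the upstream bases of Hsd3b5 and the window of Hsd3b3 were 75.2% identical over 250 columns, with Hsd3b5 displaced against the annotated start of Hsd3b3. The window of Hsd3b2 aligned with that of Hsd3b5 over 81 columns only, at 74.1% identity. The windows of 300 bases, 250 before to 50 after the start, were searched on both strands for CAAAGTTCA and CAAAGTCCA, letters of the kind that HNF4A binds, for the nuclear receptor half-sites AGGTCA and AGTTCA, and for TTCNNNGAA, the core that STAT5 binds. CAAAGTTCA, which contains AGTTCA, stood at positions -44 to -36 of Hsd3b5 and occurs in 0.390% of 32851 windows of all genes. At the aligned place Hsd3b3 had a match to CAAAGTCCA, found in 0.475% of windows, at positions 5 to 13 after its start, as shown in capitals in 30 bases around it.
Hsd3b3, chr3:98763105-98763134: tcactgaaagTGGACTTTGaagcttccagc
No match to any of the 5 motifs was found in the window of Hsd3b2. Among the other members with a window, AGTTCA matched at positions -120 to -115 of Hsd17b6 and -175 to -170 of Hsd17b11, and AGGTCA at -96 to -91 of Hsd17b13. AGTTCA occurs in 14.0%, AGGTCA in 16.3% and TTCNNNGAA in 8.30% of all windows, and the latter was in none of the members' windows. For Hsd17b2 no window was used. These matches describe letters and show no binding.

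Hsd3b3, the most abundant of the 3 in counts, was at 173, 192, 233, 219.7 and 195 CPM in control livers 1 to 5. In MI-883-treated livers 1 to 5 it was at 175, 176, 153, 176 and 161 CPM. Control liver 1 lay among the treated livers and the other 4 controls lay above all treated ones. The log2 fold change was -0.27 (SE 0.086, edgeR adjusted P = 0.169), and the exact two-sided permutation test of this gene alone gave P = 0.0317 (n = 5 per group).

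Hsd3b2 was at 28.5, 31.2, 54.2, 38.6 and 40.7 CPM in control livers 1 to 5. In MI-883-treated livers it was at 23.1, 27.9, 30.4, 33.5 and 32.5 CPM. Control liver 3 was far above the rest, and controls 1 and 2 lay within the range of the treated livers. The log2 fold change was -0.39 (SE 0.16, edgeR adjusted P = 0.263, exact permutation P = 0.0873), and without control liver 3 it was -0.24 (edgeR adjusted P = 0.428).

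Hsd3b5 was at 19.4, 24.0, 153, 70.1 and 54.0 CPM in control livers 1 to 5. In MI-883-treated livers it was at 19.7, 38.3, 29.1, 79.6 and 54.4 CPM. Both groups held low and high livers. The log2 fold change of -0.54 had a 95% interval from -1.63 to 0.56 (edgeR adjusted P = 0.636, exact permutation P = 0.659). Without control liver 3, the fold change turned to 0.078 (edgeR adjusted P = 0.952).

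The SD of log2 CPM within groups was 1.01 for Hsd3b5, larger than for 99.8% of the 11613 tested genes with at least 1 CPM, whose median was 0.160. Hsd17b6 had 0.588 (98.3%), Hsd3b2 had 0.293 (86.0%) and Hsd11b1 had 0.212 (70.7%), whereas Hsd3b3, Hsd17b2, Hsd17b11, Hsd17b13 and Srd5a1 lay between 0.137 and 0.157. Control liver 3 ranked the highest of 10 for Hsd3b2, Hsd3b3 and Hsd3b5, and also for Srd5a1, which lies outside their cluster. MI-883-treated liver 1 ranked 10th for Hsd3b2, 7th for Hsd3b3 and 9th for Hsd3b5.

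**Figure D2:**
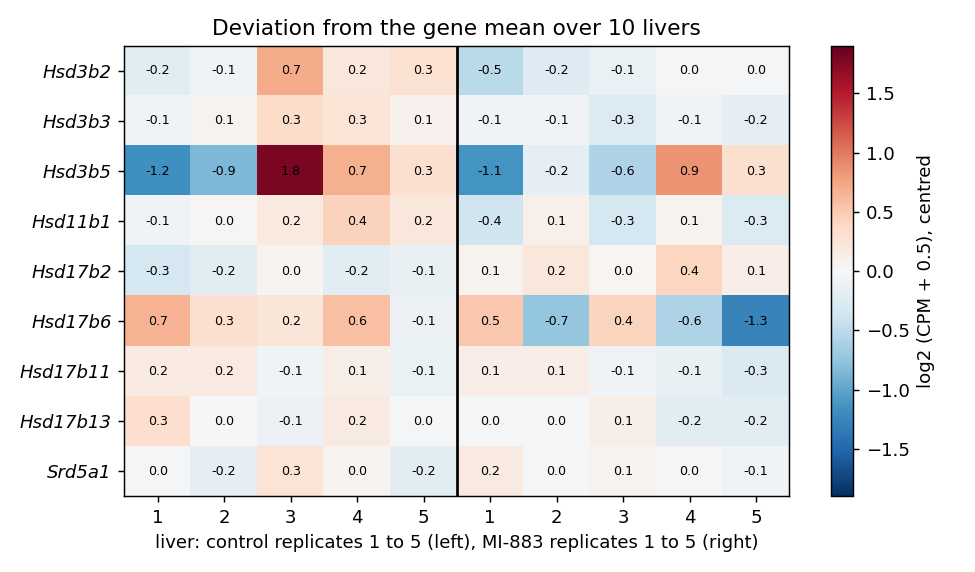
Deviation of each gene (rows) from its own mean over the 10 livers, in log2 (CPM + 0.5), with controls 1 to 5 left and MI-883-treated livers 1 to 5 right of the line. The strongest colour among controls is that of Hsd3b5 in liver 3, 1.79 above its mean, and among treated livers that of Hsd17b6 in liver 5, at -1.27.

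The genes most alike in pattern were taken by the smallest root-mean-square difference of centred log2 CPM over the 10 livers, among 11604 genes of at least 1 CPM. For Hsd3b5 these were Slc22a7, an organic anion transporter of hepatocytes, at 0.399, and the major urinary protein genes Mup12 at 0.447 and Mup2 at 0.470, where the median gene stood at 0.919. Major urinary protein genes are near-identical copies, and counts of a single one are uncertain. For Hsd17b6 they were Tmprss4 at 0.175, Wfdc17 at 0.215 and Ptgds at 0.267 (median gene 0.641). For Hsd3b2 they were Ccdc151 at 0.125, Cbs, which makes cystathionine from homocysteine, at 0.127, and Scnn1a at 0.149 (median gene 0.348). These are descriptions over livers whose libraries were made with the same kit, and a gene with little variation of its own is closer to most genes.

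Ratios of neighbouring members within a liver do not depend on how libraries are scaled. The log2 ratio of Hsd3b5 to Hsd3b2 was 0.37 ± 0.85 in control and 0.43 ± 0.59 in MI-883-treated livers, and that of Hsd3b5 to Hsd3b3 was -2.04 ± 1.04 and -2.08 ± 0.77 (n = 5 per group). The ratio of Hsd3b3 to Hsd3b2 was 2.40 ± 0.22 and 2.50 ± 0.26. The differences were 0.059, -0.040 and 0.099, with exact permutation P of 0.897, 0.960 and 0.532, and none passed adjustment over the 6 pairs of genes that were compared. The first 2 changed sign on leaving out single livers, with values from -0.17 to 0.34 and from -0.31 to 0.32.

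Hsd11b1 (Entrez gene 15483, chr1:193221640-193264045) encodes 11β-hydroxysteroid dehydrogenase type 1, which regenerates corticosterone from its inactive keto form in the endoplasmic reticulum. It was at 390.1, 413, 463, 552 and 472 CPM in control livers 1 to 5 and at 313, 437, 324, 427 and 339 CPM in MI-883-treated livers. Treated livers 2 and 4 lay within the range of the controls and the other 3 lay below it. The means were 458 ± 62.8 and 368 ± 59.2 CPM, with a log2 fold change of -0.32 (SE 0.12, edgeR adjusted P = 0.236, exact permutation P = 0.0635). Lamb3 and an antisense gene overlap Hsd11b1 on the opposite strand, and the strand setting of the counting is not given in the sources used here.

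The reductase direction of this enzyme draws on NADPH made in the same compartment by hexose-6-phosphate dehydrogenase, the product of H6pd. H6pd was at 371, 397, 422, 304 and 391 CPM in control livers and at 361, 451, 429.5, 432 and 471 CPM after MI-883, with a log2 fold change of 0.19 (edgeR adjusted P = 0.382). The groups overlapped. The log2 ratio of Hsd11b1 to H6pd was 0.28 ± 0.34 in control and -0.23 ± 0.21 in MI-883-treated livers (n = 5 per group), with values from 0.056 to 0.860 and from -0.472 to -0.017, so that all treated livers lay below all controls. The difference of -0.51 had an exact permutation P of 0.00794, the smallest that 5 against 5 livers can give, and 0.0476 after adjustment over the 6 pairs. It stayed below 0 on leaving out each liver, but the adjusted exact P rose to 0.143 without control liver 4 (-0.36) or MI-883-treated liver 5 (-0.45), and to 0.0952 without MI-883-treated liver 3 (-0.46). Control liver 4 had both the highest Hsd11b1 and the lowest H6pd.

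**Figure D3:**
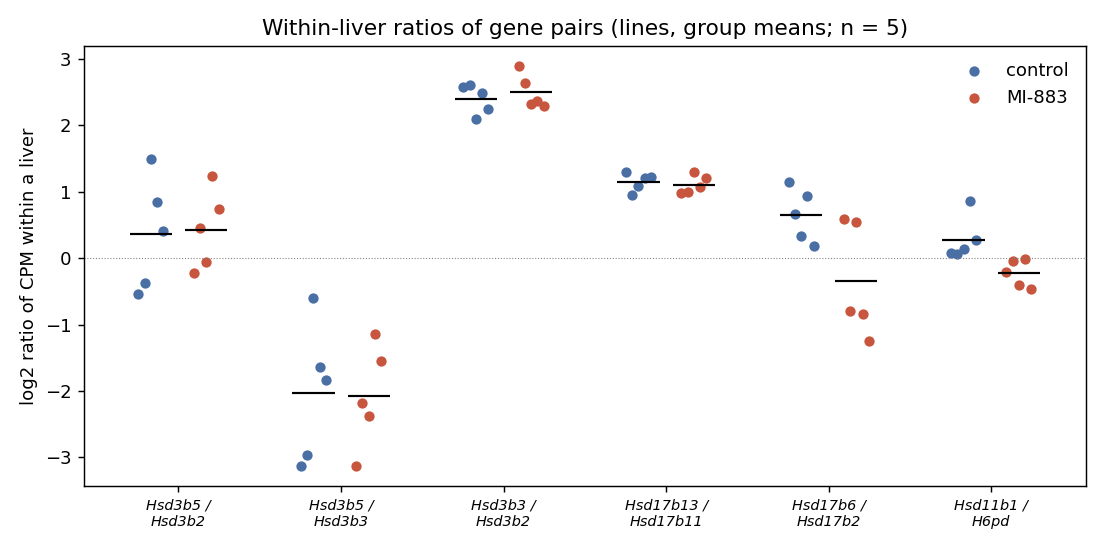
Log2 ratio of the CPM of 2 genes in the same liver (vertical axis) for 6 pairs of genes, with control livers in blue, MI-883-treated livers in red and lines at the group means (n = 5 per group). Only for Hsd11b1 over H6pd do the groups part, at -0.472 to -0.017 in treated and 0.056 to 0.860 in control livers.

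Genes that glucocorticoid induces were examined beside Hsd11b1. Of 12 such genes tested, 4 had estimates above and 8 below 0, with a median of -0.22, and edgeR and DESeq2 called 0 (3 at an unadjusted edgeR P under 0.05). The highest expressed, Pck1 of gluconeogenesis, was at 3057 ± 1020.5 CPM in controls and 2539 ± 376 CPM after MI-883 (edgeR adjusted P = 0.591). Among steroid receptors and carriers, edgeR called 0 of 8 tested genes (2 at an unadjusted P under 0.05), DESeq2 called 1 higher and 1 lower, 1 was above and 7 were below 0, and the median was -0.12. The highest expressed was Pgrmc1, a heme-binding membrane protein, at 1683 ± 122 and 2162 ± 202 CPM (log2 fold change 0.36, edgeR adjusted P = 0.0864).

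Hsd17b2 (Entrez gene 15486, chr8:117700982-117759030) oxidizes estradiol to estrone and testosterone to androstenedione with NAD. It was at 94.8, 103, 124, 103 and 108 CPM in control livers 1 to 5 and at 126, 139.7, 122, 159 and 131 CPM in MI-883-treated livers. Control liver 3 and treated liver 3 crossed by a small margin, and all other treated livers lay above all controls. The log2 fold change was 0.34 (SE 0.089, 95% interval 0.15 to 0.54), which is 1.27-fold, with an exact permutation P of 0.0159. The call depended on the processing. The edgeR adjusted P was 0.0948 and stayed between 0.0657 and 0.198 on leaving out each liver, whereas it was 0.0168 in DESeq2, 0.0208 with total counts in place of TMM and 0.0121 once a surrogate variable was fitted. None of its 100-base stretches was shared with another gene.

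Hsd17b6 (Entrez gene 27400, chr10:127990931-128007648) oxidizes androstanediol and also acts on retinol. It was at 211, 163, 156, 198 and 123 CPM in control livers 1 to 5. In MI-883-treated livers it was at 190.2, 79.9, 178, 88.2 and 54.9 CPM. Treated livers 1 and 3 lay among the controls, while livers 2, 4 and 5 lay below all controls. The log2 fold change was -0.52 (SE 0.30, 95% interval -1.16 to 0.11, edgeR adjusted P = 0.413, exact permutation P = 0.119), and it ranged from -0.76 to -0.34 on leaving out each liver. With 1 surrogate variable it was -0.88 (edgeR adjusted P = 0.0517). The log2 ratio of Hsd17b6 to Hsd17b2 was 0.65 ± 0.40 in control and -0.35 ± 0.86 in MI-883-treated livers, a difference of -1.002 (exact permutation P = 0.0714, adjusted over 6 pairs 0.214).

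Hsd17b6 lies among retinol dehydrogenase genes on chromosome 10, to which it is related. Of these, Rdh16f2, 114 kb away, fell from 43.3 ± 14.5 to 16.7 ± 5.66 CPM (log2 fold change -1.37, SE 0.26, edgeR adjusted P = 0.0217, n = 5 per group). It was at 28.8, 33.1, 36.9, 57.0 and 60.5 CPM in control livers and at 20.2, 17.6, 9.55, 23.6 and 12.6 CPM in MI-883-treated livers, without overlap. Its edgeR adjusted P rose above 0.05 without control liver 4 (0.0631), control liver 5 (0.0623), MI-883-treated liver 2 (0.0591) or MI-883-treated liver 5 (0.0754), and DESeq2 gave 0.00101. Rdh9 was at 99.3 ± 13.6 and 76.9 ± 6.01 CPM (edgeR adjusted P = 0.0914), Rdh16 at 159 ± 31.0 and 116 ± 12.7 CPM (0.133), and Rdh7, the highest expressed, at 1379 ± 83.3 and 1205 ± 71.1 CPM (0.260). Hsd17b6 shares 8.77% of its 100-base stretches with Rdh16f1 of this family. Over 16 tested retinol and related dehydrogenases, 5 were above and 11 below 0, with a median of -0.14. EdgeR called Rdh16f2 alone, and DESeq2 called 3 of the 16, all lower. Over all tested genes, edgeR called 0.265% lower and DESeq2 1.3%.

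Hsd17b11 (Entrez gene 114664, chr5:103989765-104021796) and Hsd17b13 (243168, chr5:103955442-103977388) are neighbours on chromosome 5, and both proteins are found on lipid droplets. Hsd17b11 ranged from 195 to 241 CPM in controls and from 177 to 234 CPM after MI-883 (log2 fold change -0.087, SE 0.095, edgeR adjusted P = 0.689). Hsd17b13 ranged from 432 to 584 CPM and from 408 to 505 CPM (-0.14, edgeR adjusted P = 0.530). The 95% interval of the Hsd17b11 change was -0.29 to 0.12, and that of Hsd17b13 was -0.35 to 0.077. Their log2 ratio was 1.15 ± 0.13 in control and 1.11 ± 0.14 in MI-883-treated livers (exact permutation P = 0.651, n = 5 per group). Of 18 other lipid droplet genes tested, 9 were above and 9 below 0, the median was -0.0045, and edgeR and DESeq2 called 0 (1 at an unadjusted edgeR P under 0.05). Plin2, the main droplet coat protein of hepatocytes, was at 991 ± 103 and 961 ± 165 CPM (edgeR adjusted P = 0.889). By RT-qPCR in a larger set of livers, the paper reports significantly lower Plin2 mRNA after MI-883.

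Srd5a1 (Entrez gene 78925, chr13:69573449-69611485) encodes steroid 5α-reductase type 1, which reduces testosterone and other 4-ene steroids. It ranged from 109.7 to 152 CPM in controls and from 119.96 to 144 CPM after MI-883 (log2 fold change 0.047, 95% interval -0.15 to 0.25, edgeR adjusted P = 0.838, exact permutation P = 0.579). Of its 100-base stretches, 13.6% occur in Gm17108, a gene annotated within it on the same strand, and Nsun2 overlaps on the other strand.

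Of 25 other steroid dehydrogenases and reductases, 24 were listed and 18 tested. None was called by edgeR and 1 was called higher by DESeq2, and 3 had an unadjusted edgeR P under 0.05. Their estimates were above 0 for 8 and below 0 for 10, with a median of -0.018. The highest expressed was Akr1c6, a 17β-hydroxysteroid dehydrogenase of the aldo-keto reductases, at 1284 ± 149 CPM in controls and 1258 ± 145 CPM after MI-883 (edgeR adjusted P = 0.919). The one nearest to the threshold, named after its value was seen, was Akr1c14, a 3α-hydroxysteroid dehydrogenase, at 356 ± 58.7 and 487 ± 77.1 CPM (log2 fold change 0.45, edgeR adjusted P = 0.129). Hsd11b2, which inactivates corticosterone in kidney, had 0 to 2 counts per liver, and Hsd17b3, which makes testosterone in testis, had 0 to 1.

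**Figure D4:**
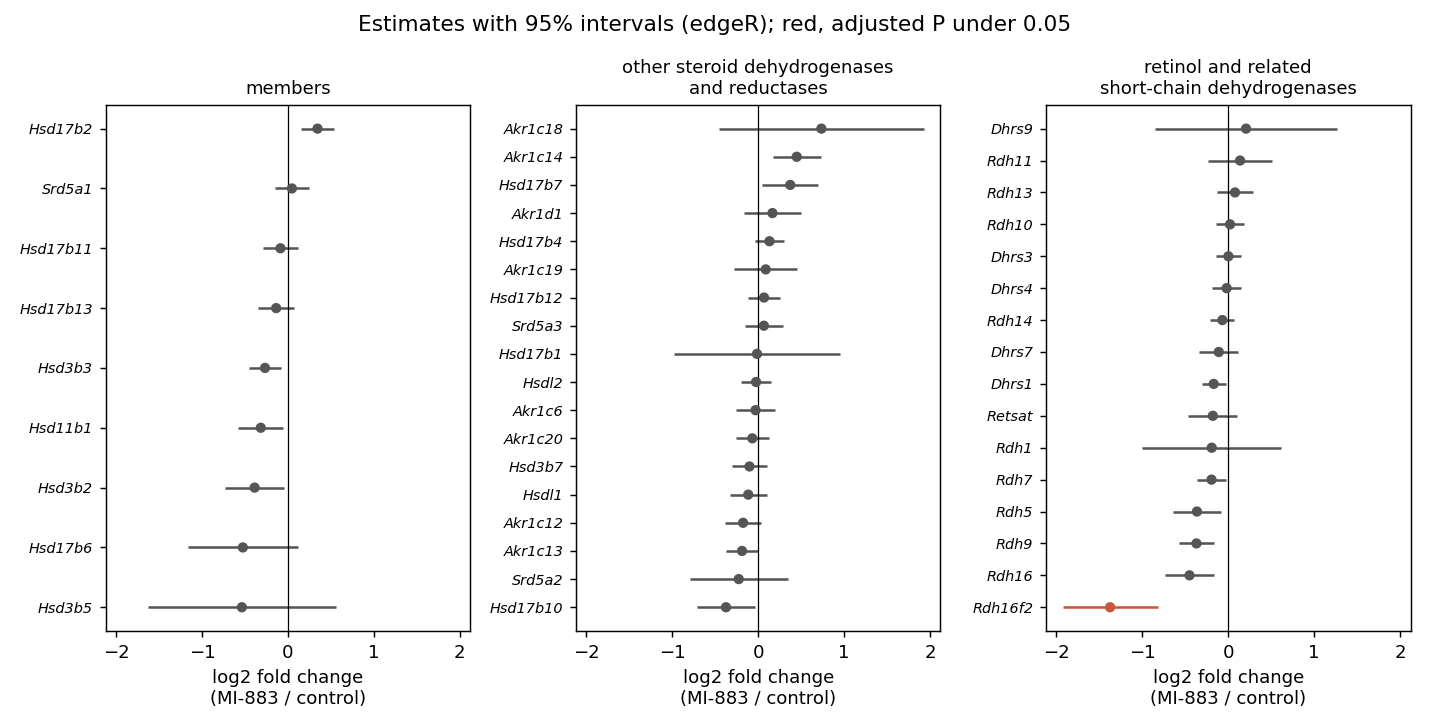
Log2 fold change of MI-883 over control (horizontal axis) with its 95% interval from edgeR for the 9 members, 18 other steroid dehydrogenases and reductases, and 16 retinol and related dehydrogenases. Rdh16f2, at -1.37, is the sole gene with an adjusted P under 0.05, and the intervals of Hsd3b5 and Hsd17b6 are the widest among the members.

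Genes that make reduced cofactor or pass its electrons on, such as to the cytochromes P450, had estimates above 0 in 8 of 8 cases, with a median of 0.32. None was called by edgeR (3 at an unadjusted P under 0.05) and 1 was called higher by DESeq2. The highest expressed, Cyb5a, which encodes cytochrome b5, was at 1413 ± 129 CPM in controls and 1842 ± 295 CPM after MI-883 (log2 fold change 0.38, edgeR adjusted P = 0.149).

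Steps that follow the dehydrogenases were measured as a list of steroid hydroxylases, sulfotransferases and glucuronosyltransferases. Of these, edgeR called 2 of 12 tested, both higher, and DESeq2 called 4 higher and 1 lower. Over all tested genes, edgeR called 0.764% higher, and DESeq2 called 2.2% higher and 1.3% lower. Ugt2b35 rose from 258 ± 33.6 to 383 ± 41.7 CPM (log2 fold change 0.57, edgeR adjusted P = 0.0205), and its adjusted P rose to between 0.0516 and 0.0669 without control liver 3 or 5 or MI-883-treated liver 2 or 5. Ugt2b34 rose from 631 ± 47.6 to 865 ± 106 CPM (0.46, edgeR adjusted P = 0.0455), and remained below the threshold only without MI-883-treated liver 1, with adjusted P up to 0.129 otherwise. Both encode enzymes that join glucuronic acid to their substrates. The list median was 0.13, with 9 above and 3 below 0. Its highest expressed member, Ugt2b5, was at 1073 ± 169 and 1139 ± 59.2 CPM (edgeR adjusted P = 0.718). Ugt2b34 is also among the CAR and PXR response genes counted above, and the paper reports that RT-qPCR bore out its RNA-Seq result for this gene.

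Hsd3b5, whose own estimate was -0.54 (edgeR adjusted P = 0.636), is one of the genes that liver of male mice expresses more than that of females. Of 14 other male-biased genes, a list chosen with earlier results of these data known, 13 had estimates above 0, with a median of 0.55. EdgeR called 3 of them higher, where it called 0.764% of all tested genes higher. These were Cyp4a12a (0.85, edgeR adjusted P = 0.0428), Cyp4a12b (0.80, 0.0141) and Cyp2d9 (0.58, 0.0264), all cytochromes P450. Cyp4a12b was called on leaving out each liver, Cyp2d9 in 4 of 10 such fits and Cyp4a12a only without control liver 4. DESeq2 called 5 of the 14, all higher, against 2.2% of all tested genes. The highest expressed, Mup20, was at 6816 ± 1805 and 8173 ± 1585 CPM (edgeR adjusted P = 0.552). Of 10 female-biased genes, 3 were above and 7 below 0, with a median of -0.27, and edgeR and DESeq2 called 0 (2 at an unadjusted edgeR P under 0.05). The highest expressed, Acot3, was at 54.9 ± 48.5 and 36.1 ± 12.6 CPM (edgeR adjusted P = 0.543).

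Markers of other tissues that make or inactivate steroids were examined because several members are active there. Of 6 adrenal and gonadal markers, 4 were listed, and they summed to between 5.12 and 7.89 CPM in controls and between 6.68 and 13.3 CPM after MI-883. Cyp21a1, the adrenal steroid 21-hydroxylase, rose from 2.99 ± 0.861 to 7.10 ± 2.39 CPM (log2 fold change 1.26, edgeR adjusted P = 0.0225), and lost the call without control liver 2 (edgeR adjusted P = 0.0691), 4 (0.0685) or 5 (0.0674) or MI-883-treated liver 5 (0.0735). The defining adrenal genes Cyp11a1 and Nr5a1 had 0 to 1 counts per liver, and Star was at 3.04 ± 0.426 and 2.69 ± 0.640 CPM. Of 5 kidney tubule markers, 4 were listed and 2 tested, with no call by edgeR or DESeq2 (2 at an unadjusted edgeR P under 0.05), and their sum was 0 to 1.54 CPM in controls and 0.444 to 26.2 CPM after MI-883. The sum of the adipocyte markers, nearly all of it from Cfd alone, was 8.44 to 18.2 CPM in controls and 0.962 to 4.44 CPM after MI-883. Cfd, the sole one tested, fell from 12.3 ± 4.06 to 2.57 ± 1.24 CPM (edgeR adjusted P = 0.00354). Adipoq had 0 to 4 counts and Plin1 had 0 to 2 counts per liver. Of the tested markers of leukocytes (6), endothelium (5), stellate cells (5), bile duct (5) and blood (3), edgeR called 0, with 6 at an unadjusted P under 0.05, and DESeq2 called 1, of endothelium. The part of these markers in the values of the members was not tested.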

How the data were processed

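Liver RNA of 5 control and 5 MI-883-treated mice was sequenced as paired reads of 150 bases on a NovaSeq6000 after directional library preparation. Reads were aligned by the authors against mm10 using STAR, and featureCounts gave the number per gene. The submitters' processing notes also name fastp 0.23.0. Versions of STAR and featureCounts, the annotation and the strand setting are not given in the sources used here. The authors deposited raw counts per Entrez gene, without normalization. Of 16647 genes, 16644 were given symbols from RefSeq (GRCm38.p6) and 3 were not.

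Livers were grouped by their treatment labels. Genes with at least 60 counts summed over 10 livers were tested with edgeR 4.0.16 in R 4.3.3 (TMM, quasi-likelihood test, condition as the only term, Benjamini-Hochberg adjustment, threshold 0.05). Single genes and within-liver log2 ratios (offset 0.5 CPM) were compared by exact two-sided permutation tests over 252 regroupings, which can give no P under 0.00794. Shared sequence was taken from GENCODE transcripts of GRCm38 as 100-base stretches. Alternatives were DESeq2 1.42.0, other scalings and filters, a block for the replicate number, 1 surrogate variable (sva 3.50.0), an offset of 0.1 CPM and leaving out each liver. DESeq2 with 60 counts in every sample was chosen after seeing the data. The fits were tested on simulated data in which 100 genes changed by 1.25-fold and 100 by 2-fold. EdgeR called 9% and 99% of these, and 5.26% of its calls were false. DESeq2 called 27% and 100%, and 14.8% of its calls were false. The counts were drawn a single time with dispersions that edgeR had estimated, and changed genes were taken from the better covered ones. For this reason the simulation cannot rank the tools on the livers themselves. The paper's methods used DESeq2, which is an alternative here.

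Library totals were 24014461 to 36221514 counts in control and 23513665 to 28349963 in MI-883-treated livers. A floor of 3 counts was 0.0838 to 0.133 CPM and covers counting error only.

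The members and lists were chosen with earlier results of these data known. Genes named are the members, list members that were called or highest expressed, the 3 genes most alike in pattern to the 3 most variable members, and Cyp2b10, Nr1i2 and Nr1i3. Further genes named for their position or other background were added after their values were seen.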

Additional observations from a re-analysis of the deposited data

Results flagged for a closer look

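Among 36 groups of 5 livers examined, 2 held a liver that stood apart by Dixon's criterion, where chance gives about 1 in 20 groups, or 1.8 here. Control liver 3 had 4.50 CPM of Cyp21a1, the adrenal steroid 21-hydroxylase, with the next control at 2.74 CPM. The log2 ratio of Hsd11b1 to H6pd was 0.860 in control liver 4, with the next control at 0.271. Without this liver the difference between the groups was -0.36 instead of -0.51.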

How the results depend on the processing

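Hsd17b2 passed the threshold in DESeq2 (0.34), with total counts in edgeR (0.39), with 1 surrogate variable (0.40) and in DESeq2 with 60 counts in every sample (0.36), so that 1 member was called under each of these and 0 under the other 5 settings and on leaving out each liver. The fold change of Hsd3b5 turned to 0.042 with 1 surrogate variable and to 0.078 without control liver 3, where the difference of mean log2 CPM was 0.11 (-0.63 to 0.11 over livers left out). Directions of the other 8 members did not change under the alternatives run.

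On leaving out single livers, fold changes ranged from -0.48 to -0.24 for Hsd3b2, -0.32 to -0.21 for Hsd3b3, -0.86 to 0.078 for Hsd3b5, -0.38 to -0.24 for Hsd11b1, 0.28 to 0.40 for Hsd17b2 and -0.76 to -0.34 for Hsd17b6. The log2 ratio of Hsd3b5 to Hsd3b2 ranged from -0.17 to 0.34, that of Hsd3b5 to Hsd3b3 from -0.31 to 0.32 and that of Hsd11b1 to H6pd from -0.56 to -0.36. Genes called higher, 101 in the main analysis, were 291 in DESeq2, 194 with 1 surrogate variable, 276 in DESeq2 with 60 counts in every sample and 52 to 144 on leaving out single livers. Genes called lower, 35 in the main analysis, were 172, 60, 173 and 9 to 59, and 17 with the replicate block. The causes were not tested.

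The replicate numbers did not pair the livers. Deviations of equally numbered livers correlated between -0.110 and 0.373 over 13219 genes, and 0 of 5 controls correlated best with their own number. With the replicate number as a block, 89 genes were called in all, 0 members among them, and the ratio of Hsd11b1 to H6pd (-0.51) had a sign-flip P of 0.0625, the smallest possible with 5 pairs, and 0.375 after adjustment. Ugt2b34 (edgeR adjusted P = 0.0737), Cyp4a12a (0.0810), Cyp4a12b (0.0620) and Cyp2d9 (0.0602) were not called with the block, while Rdh16f2 (0.0291), Ugt2b35 (0.0460) and Cyp21a1 (0.00531) were.

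With 5 livers per group, the 95% intervals of Hsd3b5 (-1.63 to 0.56) and Hsd17b6 (-1.16 to 0.11) left a fall of more than 1 on the log2 scale and no change both possible. P values set the difference between the groups against the spread between these animals. Depth was not the limit for any member.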
